A study of Mus musculus with 12 samples.

Results

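Prostaglandins and leukotrienes were followed here through the transcripts of 10 genes in mouse macrophages: the phospholipase Pla2g4a, the cyclooxygenases Ptgs1 and Ptgs2, the synthases Ptges and Hpgds, the prostaglandin receptors Ptger2 and Ptger4, and the leukotriene genes Alox5, Alox5ap and Ltc4s. They were taken by symbol from the 32246 genes of the deposited table, and all 10 were found and passed the filter on low values. The macrophages had been grown from bone marrow for 7 days with the cytokine GM-CSF at 50 ng/mL. Then 4 libraries came from cells kept for 24 h with plasminogen (PLG) pretreated with EACA plus RNases (PLG+EACA+RNase), 4 from cells kept for 24 h with PLG pretreated with EACA only (PLG+EACA) and 4 from untreated cells. EACA is epsilon-aminocaproic acid, a lysine analogue that binds plasminogen. EACA is common to both treated groups, and neither EACA without PLG nor PLG without EACA was analysed here. No group given RNases without PLG+EACA was analysed either. The labels give no strain, sex or age of the mice and do not say whether each library stands for its own animal or culture, so the p-values measure the spread between these libraries, which may be technical.

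Arachidonic acid is freed from membrane phospholipids by phospholipase A2 and then enters one of several routes. Cyclooxygenases turn it into prostaglandin H2, from which separate synthases make prostaglandin E2, prostaglandin D2, prostacyclin and thromboxane. In the other route, 5-lipoxygenase and its partner protein form leukotriene A4, which becomes leukotriene B4 or, by addition of glutathione, leukotriene C4. Macrophages are a well-known source of both classes, and prostaglandin E2 acts back on them through receptors that raise cyclic AMP.

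The libraries held 12940887 to 22677038 counted reads, as recovered from the steps in the FPKM values (fragments per kilobase of gene, scaled to the library's total). All 8 macrophage markers listed averaged above 1 FPKM, with summed levels of 4080 to 4641 FPKM in PLG+EACA+RNase, 4154 to 6084 FPKM in PLG+EACA and 5325 to 5931 FPKM in untreated libraries. Of 7 dendritic cell markers, 4 averaged above 1 FPKM, summing to 518 to 570.0 FPKM in PLG+EACA+RNase, 422 to 556 FPKM in PLG+EACA and 569 to 620.5 FPKM in untreated libraries. Lyz2 gave most of the macrophage sums, at 3615 FPKM in PLG+EACA+RNase, 4289 FPKM in PLG+EACA and 4663 FPKM in untreated cells. Itgax gave most of the dendritic cell sums, at 405.2, 386 and 506.6 FPKM in the same groups. Other markers did not share one order of groups. Csf1r had 185.7, 186.5 and 324.4 FPKM, Cd14 179.5, 231.8 and 142.6 FPKM and Ccr7 121.6, 99.85 and 78.54 FPKM in those groups. In bulk RNA, fewer cells of a type and less RNA per cell cannot be told apart.

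Both comparisons with untreated cells use the same untreated libraries. Of all tested genes, 64.4% were called in PLG+EACA+RNase and 68.3% in PLG+EACA, and the share called in the same direction in both was not counted. Ptgs2, Ptges and Pla2g4a were called higher, and Ptgs1, Ptger2, Ptger4 and Alox5 lower, in PLG+EACA+RNase and in PLG+EACA than in untreated cells. Ltc4s was lower in PLG+EACA than in untreated cells, but stood near the untreated level in PLG+EACA+RNase. Between the treated groups, Ptgs2 was lower and Ltc4s higher in PLG+EACA+RNase. Hpgds passed the filter through PLG+EACA+RNase, where it was highest, and its call between the treated groups ended under most other settings.

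Of the 10 members, 3 rose and 4 fell in PLG+EACA+RNase against untreated cells at an adjusted p of 0.05 (limma, Benjamini-Hochberg over 11165 genes), where 64.4% of all tested genes were called, 16.0% higher and 48.4% lower. In PLG+EACA against untreated cells 3 rose and 5 fell, beside 68.3% of all tested genes, 14.9% higher and 53.4% lower. In PLG+EACA+RNase against PLG+EACA 2 rose and 1 fell, beside 20.8% of all tested genes, 12.1% higher and 8.73% lower. Of those 2, Hpgds passed the filter through the PLG+EACA+RNase libraries, where it was highest. The members' shares called are near the background. At least 2-fold changes with a call were found for 2 members, Ptgs2 and Ptges, in PLG+EACA+RNase, beside 6.41% of all genes, and for 3, Ptgs2, Ptges and Ptgs1, in PLG+EACA, beside 6.78%. No member changed that much between the treated groups, where 1.11% of all genes did.

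The direction of the counts depends in part on scaling. The median log2 fold change of all tested genes was -0.20 in PLG+EACA+RNase and -0.26 in PLG+EACA against untreated cells, and median-of-ratios scaling brought these to -0.04 and -0.00. Under that scaling 5 members rose and 4 fell in PLG+EACA+RNase, and 4 rose and 4 fell in PLG+EACA, each against untreated cells. The 5 include Hpgds, which passed the filter through the PLG+EACA+RNase libraries, where it was highest. Between the treated groups, whose median for all genes was 0.04 and became -0.05, that scaling gave 1 member higher and 2 lower. The median log2 fold change of the 10 members was 0.06 in PLG+EACA+RNase and -0.23 in PLG+EACA against untreated cells, which is 0.26 and 0.02 above the median of all genes. Between the treated groups it was 0.01, against 0.04 for all genes.

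**Figure D1:**
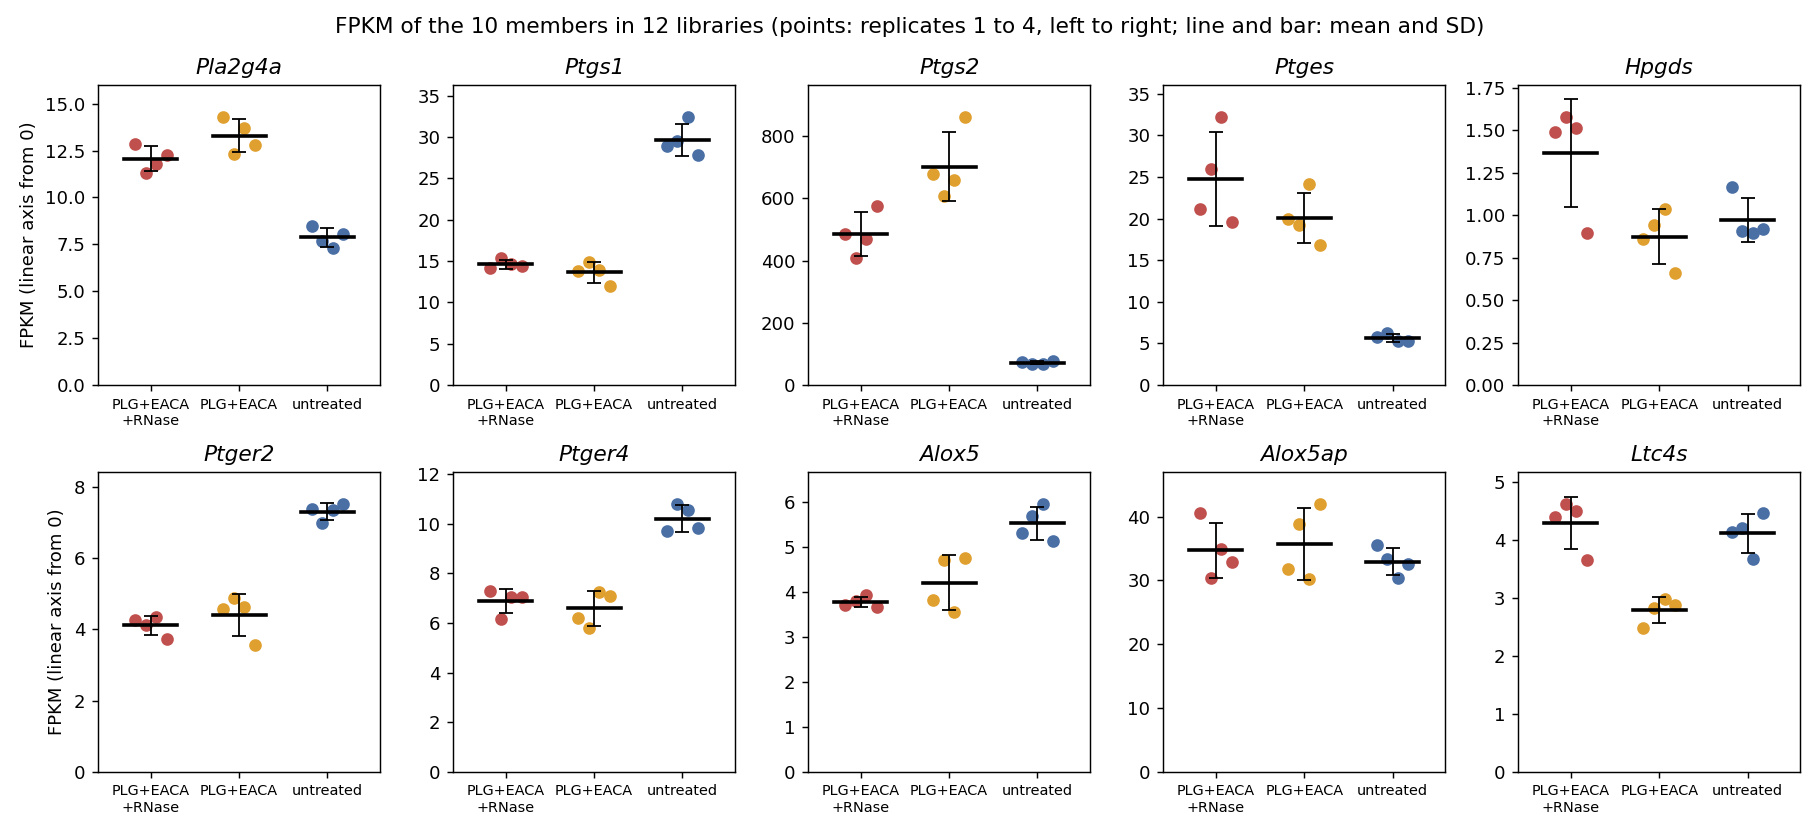
FPKM of each of the 10 genes in every library, with PLG+EACA+RNase, PLG+EACA and untreated groups from left to right. Points are replicates 1 to 4, the line is the group mean and the error bar is the SD. Ptgs2, Ptges and Pla2g4a stand higher in all 8 treated libraries than in any untreated one, and Ptgs1, Ptger2, Ptger4 and Alox5 lower.

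Pla2g4a, on chr1:149829618-149961290 (minus strand, GRCm38), encodes the cytosolic phospholipase A2 that releases arachidonic acid from membranes. Its level was 12.9, 11.3, 11.8 and 12.3 FPKM in PLG+EACA+RNase libraries 1 to 4, 14.3, 12.3, 13.7 and 12.8 FPKM in PLG+EACA libraries and 8.50, 7.68, 7.29 and 8.04 FPKM in untreated libraries. Every treated library lay above every untreated one, while the treated groups overlapped. The log2 fold change was 0.58 in PLG+EACA+RNase (adjusted p = 7.99e-06) and 0.72 in PLG+EACA (SE 0.06, adjusted p = 1.61e-06) against untreated cells, or 1.5-fold and 1.65-fold. PLG+EACA+RNase against PLG+EACA gave -0.13 (95% interval -0.27 to 0.00, adjusted p = 0.144), which passed the test only under median-of-ratios scaling (-0.23, adjusted p = 0.0216).

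Ptgs2, on chr1:150100031-150108227 (plus strand), encodes the inducible cyclooxygenase COX-2, and it was the most abundant member in every group. It measured 487, 409, 470.3 and 577 FPKM in PLG+EACA+RNase libraries, 679.6, 608, 660.2 and 862 FPKM in PLG+EACA libraries and 73.8, 67.9, 67.2 and 76.7 FPKM in untreated libraries. No library of one group reached the range of another, so the order was PLG+EACA highest, PLG+EACA+RNase next and untreated lowest. The group means were 486 ± 69.3, 702.5 ± 110.4 and 71.4 ± 4.62 FPKM for PLG+EACA+RNase, PLG+EACA and untreated (SD, n = 4 each). By mean level it ranked 54, 36 and 546 among all genes in those groups.

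Against untreated cells Ptgs2 was 6.72-fold higher in PLG+EACA+RNase (log2 2.75, adjusted p = 1.69e-08) and 9.71-fold higher in PLG+EACA (log2 3.28, SE 0.11, adjusted p = 6.44e-09). Among the 11165 tested genes, ordered from the highest log2 fold change, it stood at rank 25 in PLG+EACA+RNase and at rank 18 in PLG+EACA. PLG+EACA+RNase was 1.44-fold lower than PLG+EACA (log2 -0.53, SE 0.11, adjusted p = 0.0114). That difference kept its direction and its call in all 20 alternatives, with log2 values of -0.63 to -0.43 and adjusted p of 0.00218 to 0.0478.

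Ptgs1, on chr2:36230426-36252272 (plus strand), encodes the constitutive cyclooxygenase COX-1 and went the other way. It had 14.1, 15.4, 14.7 and 14.4 FPKM in PLG+EACA+RNase libraries, 13.8, 14.9, 13.9 and 11.9 FPKM in PLG+EACA libraries and 29.0, 29.5, 32.4 and 27.8 FPKM in untreated libraries. The treated libraries sat together, all below the untreated ones. It was 1.99-fold lower in PLG+EACA+RNase (log2 -0.99, adjusted p = 3.59e-07) and 2.14-fold lower in PLG+EACA (log2 -1.10, SE 0.07, adjusted p = 1.80e-07), each against untreated cells. Ordered from the lowest log2 fold change, it stood at rank 259 in PLG+EACA+RNase and 253 in PLG+EACA. The treated groups differed by 0.10 on the log2 scale (95% interval -0.05 to 0.25, adjusted p = 0.298).

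Within single libraries, the ratio of Ptgs2 to Ptgs1 FPKM was 34.5, 26.6, 32.0 and 40.2 in PLG+EACA+RNase, 49.1, 40.8, 47.4 and 72.2 in PLG+EACA and 2.55, 2.30, 2.07 and 2.76 in untreated cells. The treated groups did not overlap each other, and both lay far above untreated cells. A ratio within a library does not depend on how libraries are scaled.

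**Figure D2:**
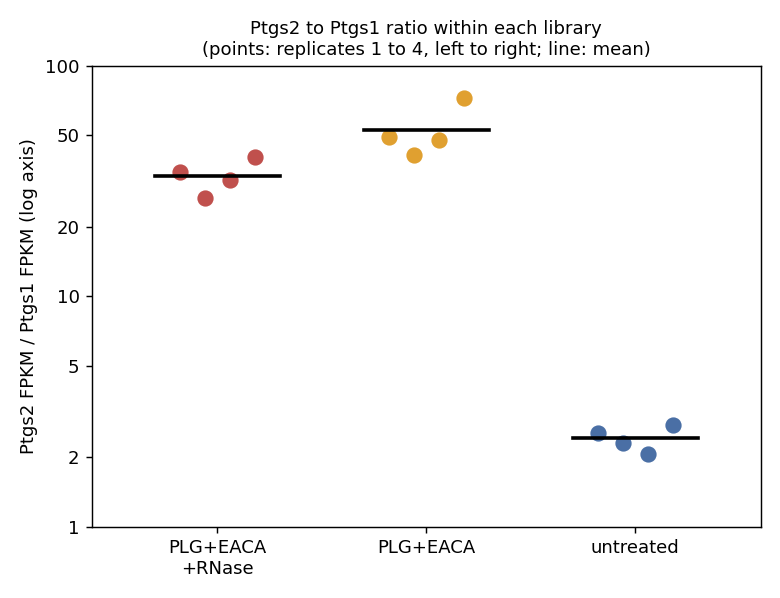
Ratio of Ptgs2 to Ptgs1 FPKM in each library on a log axis, for PLG+EACA+RNase, PLG+EACA and untreated cells from left to right. Points are replicates and the line is the mean, 33.3, 52.4 and 2.42 in that order, and no library of one group falls in the range of another.

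The promoter windows of the opposed cyclooxygenases and of Ptges are shown because these 3 genes had the largest changes. RefSeq windows (GRCm38.p6, 250 bases before to 50 after the annotated start, 300 in all) were found for 9 of the 10 members. Both strands were searched for CACGTG (E-box), TGACGT (core of the cyclic AMP response element), GGGNNNTTCC (NF-kB), TTGCNNAA (C/EBP), TGANTCA (AP-1) and GAAANNGAAA (ISRE), which occur in 7.15%, 7.51%, 5.56%, 10.8%, 7.81% and 3.44% of 32851 such windows. Matched letters are in capitals, and each sequence runs 5′ to 3′ on the strand of its gene.
Ptgs2, chr1:150099781-150100080, plus strand: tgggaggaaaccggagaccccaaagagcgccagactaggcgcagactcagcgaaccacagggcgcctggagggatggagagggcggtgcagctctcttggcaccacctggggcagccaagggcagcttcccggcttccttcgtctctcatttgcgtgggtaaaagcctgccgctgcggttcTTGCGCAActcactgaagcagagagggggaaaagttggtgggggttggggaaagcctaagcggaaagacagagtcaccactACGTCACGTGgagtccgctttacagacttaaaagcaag
Ptgs1, chr2:36230176-36230475, plus strand: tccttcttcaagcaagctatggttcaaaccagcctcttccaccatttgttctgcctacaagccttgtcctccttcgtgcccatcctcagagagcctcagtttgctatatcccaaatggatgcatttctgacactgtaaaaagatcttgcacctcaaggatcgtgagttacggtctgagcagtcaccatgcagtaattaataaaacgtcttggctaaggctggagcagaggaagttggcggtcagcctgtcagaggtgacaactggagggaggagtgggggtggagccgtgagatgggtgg
Ptges, chr2:30903248-30903547, minus strand: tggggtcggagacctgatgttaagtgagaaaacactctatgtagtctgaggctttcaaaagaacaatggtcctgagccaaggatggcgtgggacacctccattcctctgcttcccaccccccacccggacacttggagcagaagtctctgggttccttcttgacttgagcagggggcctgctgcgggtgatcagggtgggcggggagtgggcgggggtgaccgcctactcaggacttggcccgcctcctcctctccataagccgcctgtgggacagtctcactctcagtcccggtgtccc
In Ptgs2 the C/EBP letters lie from -69 to -62 relative to the start, taken as 0, and the E-box from 16 to 21, sharing letters with a TGACGT match on the reverse strand from 12 to 17. The RefSeq start of Ptges lies inside the span of its gene in the GENCODE annotation. None of the 6 motifs was found in the windows of Ptgs1 and Ptges. A C/EBP match was also present in the windows of Hpgds (-176 to -169) and Ptger2 (39 to 46), and no match in those of Pla2g4a, Ptger4, Alox5 and Ltc4s. A match describes letters only and says nothing of binding in these cells.

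Ptges, on chr2:30889471-30929863 (minus strand), encodes microsomal prostaglandin E synthase-1, the inducible enzyme that works downstream of COX-2. It had 21.1, 26.0, 32.2 and 19.6 FPKM in PLG+EACA+RNase libraries, 20.005, 19.3, 24.1 and 16.8 FPKM in PLG+EACA libraries and 5.83, 6.20, 5.27 and 5.29 FPKM in untreated libraries. All treated libraries exceeded all untreated ones, and the treated groups overlapped. The increase over untreated cells was 4.04-fold in PLG+EACA+RNase (log2 2.01, adjusted p = 4.73e-07) and 3.32-fold in PLG+EACA (log2 1.73, SE 0.14, adjusted p = 1.15e-06). Unlike Ptgs2, the mean of Ptges was not lower in PLG+EACA+RNase than in PLG+EACA, and the log2 difference of 0.28 did not pass the test (95% interval -0.03 to 0.59, adjusted p = 0.178).

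Hpgds, on chr6:65117293-65144908 (minus strand), encodes hematopoietic prostaglandin D synthase and was the member with the lowest level in every group. It had 1.49, 1.58, 1.51 and 0.895 FPKM in PLG+EACA+RNase libraries, 0.862, 0.940, 1.04 and 0.657 FPKM in PLG+EACA libraries and 1.17, 0.906, 0.897 and 0.917 FPKM in untreated libraries, from 74 to 195 reads. It passed the filter with 5 libraries at 1 FPKM or more, 3 of them PLG+EACA+RNase, the group where it was highest. The tests of that group are therefore given as a description. In 3 PLG+EACA+RNase libraries it was above all others, and the fourth lay within the PLG+EACA range and just below the untreated one. Against PLG+EACA it was 0.43 higher on the log2 scale (SE 0.14, adjusted p = 0.0495), a call that 14 of 20 alternatives ended (adjusted p 0.00529 to 0.133 over all of them). Against untreated cells the log2 difference was 0.33 in PLG+EACA+RNase (adjusted p = 0.0588) and -0.10 in PLG+EACA (95% interval -0.41 to 0.21, adjusted p = 0.538). Median-of-ratios scaling gave 0.45 with a call in PLG+EACA+RNase (adjusted p = 0.0116) and 0.08 in PLG+EACA. In all, 6 of 20 alternatives called Hpgds higher in PLG+EACA+RNase than in untreated cells. Among them were the fits without PLG+EACA+RNase library 4 (0.47, adjusted p = 0.00506) and without PLG+EACA library 4 (0.33, adjusted p = 0.0471). Leaving out untreated library 1 also gave a call (0.39, adjusted p = 0.0458). Because Hpgds passed the filter through PLG+EACA+RNase, these calls are a description too and lend no support to a difference. Mast cells and basophils also express Hpgds: 3 of 8 of their markers in the table averaged above 1 FPKM, with sums of 9.67 to 14.2 FPKM in PLG+EACA+RNase, 10.2 to 19.4 FPKM in PLG+EACA and 8.22 to 11.1 FPKM in untreated libraries, and their part in the Hpgds values was not tested. None of the 8 was at 0 in all libraries. Hdc, the histamine-forming enzyme, was the highest of them in both treated groups, at 5.28 FPKM in PLG+EACA+RNase and 8.51 FPKM in PLG+EACA, against 1.46 FPKM in untreated cells. The stem cell factor receptor Kit had 1.36 FPKM in PLG+EACA+RNase and 1.30 FPKM in PLG+EACA, against 3.04 FPKM in untreated cells, and Gata2 had 3.81, 3.82 and 4.53 FPKM in the same groups. The basophil protease Mcpt8 averaged 1.15 FPKM in PLG+EACA+RNase, 0.0872 FPKM in PLG+EACA and 0.170 FPKM in untreated libraries. Its highest library had 3.80 FPKM, so the PLG+EACA+RNase mean rests largely on a single library. The receptor chains Fcer1a and Ms4a2 reached at most 0.297 and 0.422 FPKM in any library, and Cpa3 and Tpsb2 at most 0.977 and 0.184 FPKM. In PLG+EACA+RNase, PLG+EACA and untreated cells, Fcer1a averaged 0.1067, 0.02675 and 0.0245 FPKM and Ms4a2 0.1745, 0.0235 and 0.029 FPKM. Cpa3 averaged 0.5725, 0.2532 and 0.4197 FPKM and Tpsb2 0.02025, 0.009 and 0.046 FPKM in the same groups. Mcpt8, Fcer1a, Ms4a2 and Cpa3 thus averaged highest in PLG+EACA+RNase, Hdc in PLG+EACA, and Kit, Gata2 and Tpsb2 in untreated cells.

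The receptors for prostaglandin E2 that raise cyclic AMP were lower in both treated groups, where 48.4% (PLG+EACA+RNase) and 53.4% (PLG+EACA) of all tested genes were lower. Ptger2, which encodes EP2 on chr14:44988195-45003820 (plus strand), had 4.28, 4.12, 4.34 and 3.74 FPKM in PLG+EACA+RNase libraries, 4.58, 4.88, 4.64 and 3.55 FPKM in PLG+EACA libraries and 7.39, 7.00, 7.35 and 7.53 FPKM in untreated libraries. Every treated library was below every untreated one. Ptger2 was 1.69-fold lower in PLG+EACA+RNase (log2 -0.76, adjusted p = 8.97e-06) and 1.60-fold lower in PLG+EACA (log2 -0.68, adjusted p = 1.91e-05) than in untreated cells. The treated groups overlapped and differed by -0.08 (95% interval -0.26 to 0.10, adjusted p = 0.504).

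Ptger4, which encodes EP4 on chr15:5206661-5244187 (minus strand), had 7.30, 6.16, 7.04 and 7.03 FPKM in PLG+EACA+RNase libraries, 6.19, 5.81, 7.25 and 7.07 FPKM in PLG+EACA libraries and 9.69, 10.8, 10.5 and 9.81 FPKM in untreated libraries. Again no treated library reached the untreated range. The decrease from untreated cells was 1.45-fold in PLG+EACA+RNase (log2 -0.54, adjusted p = 6.26e-05) and 1.52-fold in PLG+EACA (log2 -0.60, adjusted p = 2.39e-05). The log2 difference of PLG+EACA+RNase from PLG+EACA was 0.06 (95% interval -0.10 to 0.23, adjusted p = 0.578), or -0.03 under median-of-ratios scaling. Exons of Ptger4 overlap those of Ttc33 on the opposite strand, and since no source used here states that reads were counted by strand, reads of the 2 genes may have been mixed. Ttc33 was itself lower, at 9.31 FPKM in PLG+EACA+RNase (log2 -0.18, adjusted p = 0.0220) and 9.11 FPKM in PLG+EACA (log2 -0.21, adjusted p = 0.00944), against 10.6 FPKM in untreated cells.

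The 3 leukotriene members did not move as a unit. Alox5, on chr6:116410077-116461178 (minus strand), encodes 5-lipoxygenase, the first enzyme of leukotriene synthesis. It had 3.70, 3.80, 3.92 and 3.65 FPKM in PLG+EACA+RNase libraries, 3.82, 4.69, 3.54 and 4.74 FPKM in PLG+EACA libraries and 5.30, 5.68, 5.95 and 5.12 FPKM in untreated libraries. All treated libraries lay below the untreated ones. It was 1.41-fold lower in PLG+EACA+RNase (log2 -0.49, adjusted p = 0.000283) and 1.29-fold lower in PLG+EACA (log2 -0.36, adjusted p = 0.00226) than in untreated cells, and the second call ended under median-of-ratios scaling (-0.10, adjusted p = 0.431). Between the treated groups the log2 difference was -0.13 (95% interval -0.31 to 0.05, adjusted p = 0.283).

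Alox5ap, on chr5:149264767-149288153 (plus strand), encodes FLAP, the membrane protein that presents arachidonic acid to 5-lipoxygenase. It was next in abundance to Ptgs2, with 40.5, 30.4, 35.0 and 32.9 FPKM in PLG+EACA+RNase libraries, 31.8, 38.8, 30.3 and 42.0 FPKM in PLG+EACA libraries and 35.5, 33.4, 30.4 and 32.5 FPKM in untreated libraries. The 3 groups overlapped. Its log2 difference from untreated cells was 0.07 in PLG+EACA+RNase (95% interval -0.17 to 0.31, adjusted p = 0.606) and 0.10 in PLG+EACA (-0.13 to 0.34, adjusted p = 0.416), and that of PLG+EACA+RNase from PLG+EACA was -0.04 (-0.28 to 0.20, adjusted p = 0.838). Under median-of-ratios scaling Alox5ap was higher in PLG+EACA than in untreated cells (log2 0.39, adjusted p = 0.0252).

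Ltc4s, on chr11:50236461-50238616 (minus strand), encodes leukotriene C4 synthase, which adds glutathione to leukotriene A4. It had 4.40, 4.62, 4.496 and 3.64 FPKM in PLG+EACA+RNase libraries, 2.48, 2.83, 2.98 and 2.87 FPKM in PLG+EACA libraries and 4.13, 4.20, 3.66 and 4.46 FPKM in untreated libraries, from 49 to 91 reads. The PLG+EACA libraries stood below all 8 others, and PLG+EACA+RNase overlapped untreated cells. PLG+EACA was 1.4-fold lower than untreated cells (log2 -0.49, SE 0.08, adjusted p = 0.000219), and PLG+EACA+RNase was 1.45-fold higher than PLG+EACA (log2 0.54, SE 0.08, adjusted p = 0.00364). The second difference was called in all 20 alternatives, at adjusted p of 0.000546 to 0.0254. PLG+EACA+RNase differed from untreated cells by 0.05 (95% interval -0.13 to 0.23, adjusted p = 0.595), or by 0.22 with a call under median-of-ratios scaling (adjusted p = 0.0487). Exons of an antisense gene, Gm26542, overlap those of Ltc4s, at 0.846 FPKM in PLG+EACA+RNase, 0.497 FPKM in PLG+EACA and 0.647 FPKM in untreated cells. Gm26542 had 11 to 30, 7 to 21 and 16 to 20 reads per library in those groups. Since counting by strand is not stated, reads of Ltc4s and Gm26542 may have been mixed.

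**Figure D3:**
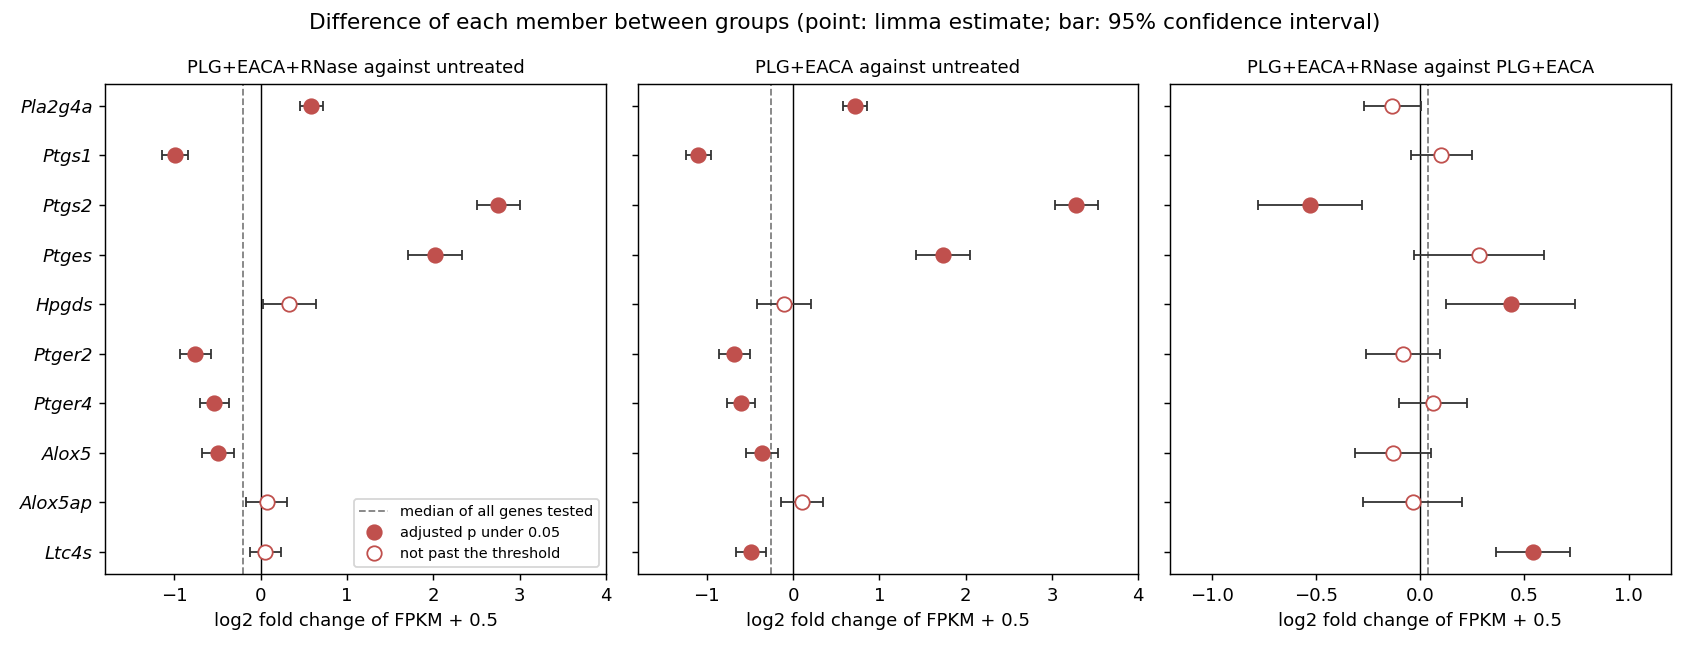
Log2 fold change of FPKM + 0.5 with its 95% confidence interval for the 10 genes in each comparison, with filled points past an adjusted p of 0.05 and open points not past it. The dashed line is the median of all tested genes. Ptgs2 lies farthest above it in both comparisons with untreated cells, at 2.75 in PLG+EACA+RNase and 3.28 in PLG+EACA, and between the treated groups Ptgs2 (-0.53) and Ltc4s (0.54) lie on opposite sides.

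Since FPKM is per length, levels can also be ordered between members. Untreated cells had Ptgs2 first, then Alox5ap (32.9 FPKM) and Ptgs1 (29.7 FPKM), whose ranges overlapped, with Ptges (5.65 FPKM) at place 7 of 10. In both treated groups Ptges took place 3, at 24.7 FPKM in PLG+EACA+RNase and 20.1 FPKM in PLG+EACA, and Ptgs1 place 4. Neighbours with overlapping ranges in PLG+EACA+RNase were Alox5ap with Ptges, Ltc4s with Ptger2 and Ptger2 with Alox5. In PLG+EACA they were Ptgs1 with Pla2g4a and Ptger2 with Alox5, and in untreated cells also Pla2g4a with Ptger2 and Ptges with Alox5. Groups of libraries did not overlap for 7 members in PLG+EACA+RNase against untreated cells (61.7% of all tested genes), 8 in PLG+EACA against untreated cells (64.6%) and 2 in PLG+EACA+RNase against PLG+EACA (18.1%).

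The wider pathway was read from 61 other listed genes, of which 59 were in the table and 39 were tested. In PLG+EACA+RNase against untreated cells 12 rose and 14 fell, and in PLG+EACA 12 rose and 16 fell. These are 66.7% and 71.8% of the genes tested, near the 64.4% and 68.3% called among all genes. The counts include Nr4a1, Nr4a2, Cysltr1 and Cysltr2, which passed the filter through the groups where they were high. The counts by role that follow stand beside 16.0% of all genes higher and 48.4% lower in PLG+EACA+RNase, and 14.9% higher and 53.4% lower in PLG+EACA. Under median-of-ratios scaling the counts were 14 up and 9 down in PLG+EACA+RNase and 13 up and 9 down in PLG+EACA. The median log2 fold change of the 39 was -0.12 in PLG+EACA+RNase and -0.15 in PLG+EACA, 0.09 and 0.10 above that of all genes. Against PLG+EACA, 8 rose and 3 fell in PLG+EACA+RNase, or 4 and 7 under that scaling, and the 28.2% called stand beside 20.8% of all genes.

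Other prostanoid synthases were mixed. Ptges2, which encodes microsomal prostaglandin E synthase-2, fell to 3.43 FPKM in PLG+EACA+RNase (log2 -0.79, adjusted p = 6.18e-07) and 3.75 FPKM in PLG+EACA (log2 -0.67, adjusted p = 1.61e-06), against 6.27 FPKM in untreated cells. Ptges3, which encodes p23, a co-chaperone also known as cytosolic prostaglandin E synthase, rose to 58.8 FPKM in PLG+EACA+RNase and 60.3 FPKM in PLG+EACA, against 48.6 FPKM in untreated cells. Thus of the 3 genes named for prostaglandin E synthases, Ptges and Ptges3 rose and Ptges2 fell in both treated groups. Cbr1, a carbonyl reductase, was lower in PLG+EACA than in untreated cells (log2 -0.60) and higher in PLG+EACA+RNase than in PLG+EACA (log2 0.41, adjusted p = 0.0162), with the second call lost without PLG+EACA+RNase library 2 or 3 (adjusted p at most 0.0535).

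For transport and inactivation, 2 of 3 tested genes rose and 1 fell in each treated group. Abcc4, an exporter of prostaglandins, reached 11.1 FPKM in PLG+EACA+RNase and 11.5 FPKM in PLG+EACA, against 8.65 FPKM in untreated cells. The reductase Ptgr1, which inactivates prostaglandins and leukotriene B4, rose to 82.3 FPKM in PLG+EACA+RNase (log2 0.77) and 76.0 FPKM in PLG+EACA (log2 0.64), against 48.0 FPKM in untreated cells. Ptgr2 fell (log2 -0.34 in PLG+EACA+RNase and -0.46 in PLG+EACA). Of 7 other listed prostanoid receptors, Ptgir, the prostacyclin receptor, was the one that passed the filter. It fell to 44.7 FPKM in PLG+EACA+RNase (log2 -0.76, adjusted p = 8.57e-06) and 42.7 FPKM in PLG+EACA (log2 -0.83, adjusted p = 4.04e-06), against 75.8 FPKM in untreated cells. With Ptger2 and Ptger4, the 3 receptors tested that couple to cyclic AMP were lower, where 48.4% and 53.4% of all genes were lower. Ptgdr and Oxgr1 were not analysed here.

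Of 8 tested genes of leukotriene synthesis, export and conversion, 2 rose and 5 fell in each treated group, or 2 and 3 under median-of-ratios scaling. Abcc1, which exports leukotriene C4, rose to 53.4 FPKM in PLG+EACA+RNase (log2 0.87, adjusted p = 2.71e-06) and 58.5 FPKM in PLG+EACA (log2 1.00, adjusted p = 8.87e-07), against 29.1 FPKM in untreated cells. Lta4h, which makes leukotriene B4, fell to 7.87 FPKM in PLG+EACA+RNase (log2 -0.49) and 6.74 FPKM in PLG+EACA (log2 -0.70), against 11.3 FPKM in untreated cells. Dpep2, a dipeptidase that acts on leukotriene D4, fell to 1.18 FPKM in PLG+EACA+RNase (log2 -1.57) and 1.78 FPKM in PLG+EACA (log2 -1.11), against 4.40 FPKM in untreated cells. The symbol Dpep2 has overlapping entries in the table, of which the more abundant was used, and its exons overlap Dus2. Between the treated groups Lta4h was higher in PLG+EACA+RNase (log2 0.21, adjusted p = 0.0313) and Dpep2 lower (log2 -0.46, adjusted p = 0.0430), but these calls ended when 6 and 10 of the 12 libraries were left out in turn, reaching adjusted p of 0.0911 and 0.111. Among leukotriene and lipoxin receptors, Ltb4r1, for leukotriene B4, fell in PLG+EACA+RNase (log2 -0.70) and in PLG+EACA (log2 -0.71). Fpr2, the lipoxin A4 and formyl peptide receptor, rose in PLG+EACA against untreated cells (log2 0.24). Fpr2 was lower in PLG+EACA+RNase, at 84.5 FPKM, than in PLG+EACA, at 108 FPKM (log2 -0.36, adjusted p = 0.00697). The cysteinyl leukotriene receptors each passed the filter through the group where they were high, so their values are given as a description. Cysltr1 had 0.541 to 0.903 FPKM in PLG+EACA+RNase, 0.768 to 1.55 FPKM in PLG+EACA and 1.17 to 1.45 FPKM in untreated libraries. Cysltr2 had 0.538 to 1.30 FPKM in PLG+EACA+RNase, 1.18 to 1.41 FPKM in PLG+EACA and 0.560 to 0.825 FPKM in untreated libraries.

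Genes that respond to cyclic AMP rose in 5 of 8 cases in each treated group, with 1 lower in PLG+EACA, or in 6 and 5 cases with none lower under median-of-ratios scaling. Nr4a1 and Nr4a2 are among the 5, and both passed the filter through the treated groups where they were high, so these counts were fixed in part by the filter. Nr4a1, an immediate early nuclear receptor, had 1.10 to 1.22 FPKM in PLG+EACA+RNase and 0.653 to 1.197 FPKM in PLG+EACA, against 0.210 to 0.265 FPKM in untreated libraries, given as a description. Pde4b, a phosphodiesterase that breaks down cyclic AMP, reached 7.41 FPKM in PLG+EACA+RNase and 9.62 FPKM in PLG+EACA, against 4.88 FPKM in untreated cells (log2 0.55 and 0.89). Crem rose by 0.56 and 0.50 on the log2 scale in PLG+EACA+RNase and PLG+EACA. Sik1 (log2 0.37, adjusted p = 0.0401) and the clock gene Per1 (log2 0.28, adjusted p = 0.0495) were higher in PLG+EACA+RNase than in PLG+EACA, calls that median-of-ratios scaling ended (adjusted p = 0.0527 and 0.205), as did leaving out any of 8 and of 11 of the 12 libraries (adjusted p up to 0.0994 and 0.122). These genes respond to many other signals too.

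Reacylation genes, which return arachidonic acid to phospholipids, were lower in 4 of 4 cases in PLG+EACA+RNase and in 3 of 4 in PLG+EACA, where 48.4% and 53.4% of all genes were lower. Their median log2 fold change was -0.34 in PLG+EACA+RNase and -0.23 in PLG+EACA, 0.14 below and 0.02 above that of all genes. Only Mboat7 kept that call in both under median-of-ratios scaling, at 3.46 FPKM in PLG+EACA+RNase (log2 -0.57) and 3.40 FPKM in PLG+EACA (log2 -0.60), against 5.39 FPKM in untreated cells, and its exons overlap Tsen34. Acsl4 fell in PLG+EACA+RNase (log2 -0.36) and in PLG+EACA (log2 -0.21), and Lpcat2 fell in PLG+EACA+RNase (log2 -0.32), each against untreated cells. Lpcat3, among the 4 lower in PLG+EACA+RNase, was also lower in PLG+EACA (log2 -0.26) than in untreated cells. Median-of-ratios scaling ended all of these calls, and in PLG+EACA it turned Acsl4 to 0.08 and Lpcat3 to 0.02. Exons of Lpcat3 overlap those of Emg1. Lpcat2 was also lower in PLG+EACA+RNase than in PLG+EACA (log2 -0.34, adjusted p = 0.0121).

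Among the 6 other tested genes of arachidonate release, 4 were higher in PLG+EACA+RNase than in PLG+EACA, beside 12.1% of all tested genes. Under median-of-ratios scaling 3 were higher, Pla2g12a being lost (adjusted p = 0.0513). Of the 4 calls, 1 not described below ended when 9 of the 12 libraries were left out in turn (adjusted p up to 0.116). Pla2g6, a calcium-independent phospholipase A2, had 3.50 FPKM in PLG+EACA+RNase and 1.96 FPKM in PLG+EACA (log2 0.71, adjusted p = 0.00699), beside 2.54 FPKM in untreated cells. Its log2 difference from untreated cells was 0.39 in PLG+EACA+RNase and -0.33 in PLG+EACA, and these calls ended when 3 and 8 of the 12 libraries were left out in turn (adjusted p up to 0.0654 and 0.118), the second also under that scaling. Pla2g15, the lysosomal phospholipase A2, had 27.6 and 17.4 FPKM in those groups (log2 0.66, adjusted p = 0.0145), and its decrease in PLG+EACA against untreated cells (log2 -0.53) was not called under that scaling (adjusted p = 0.160). Pla2g12a, a secreted phospholipase A2, was higher in PLG+EACA+RNase than in PLG+EACA (log2 0.43, adjusted p = 0.0312) and than in untreated cells (log2 0.32, adjusted p = 0.0407), calls that ended when 6 and 5 libraries were left out in turn (adjusted p up to 0.0789 and 0.109).

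**Figure D4:**
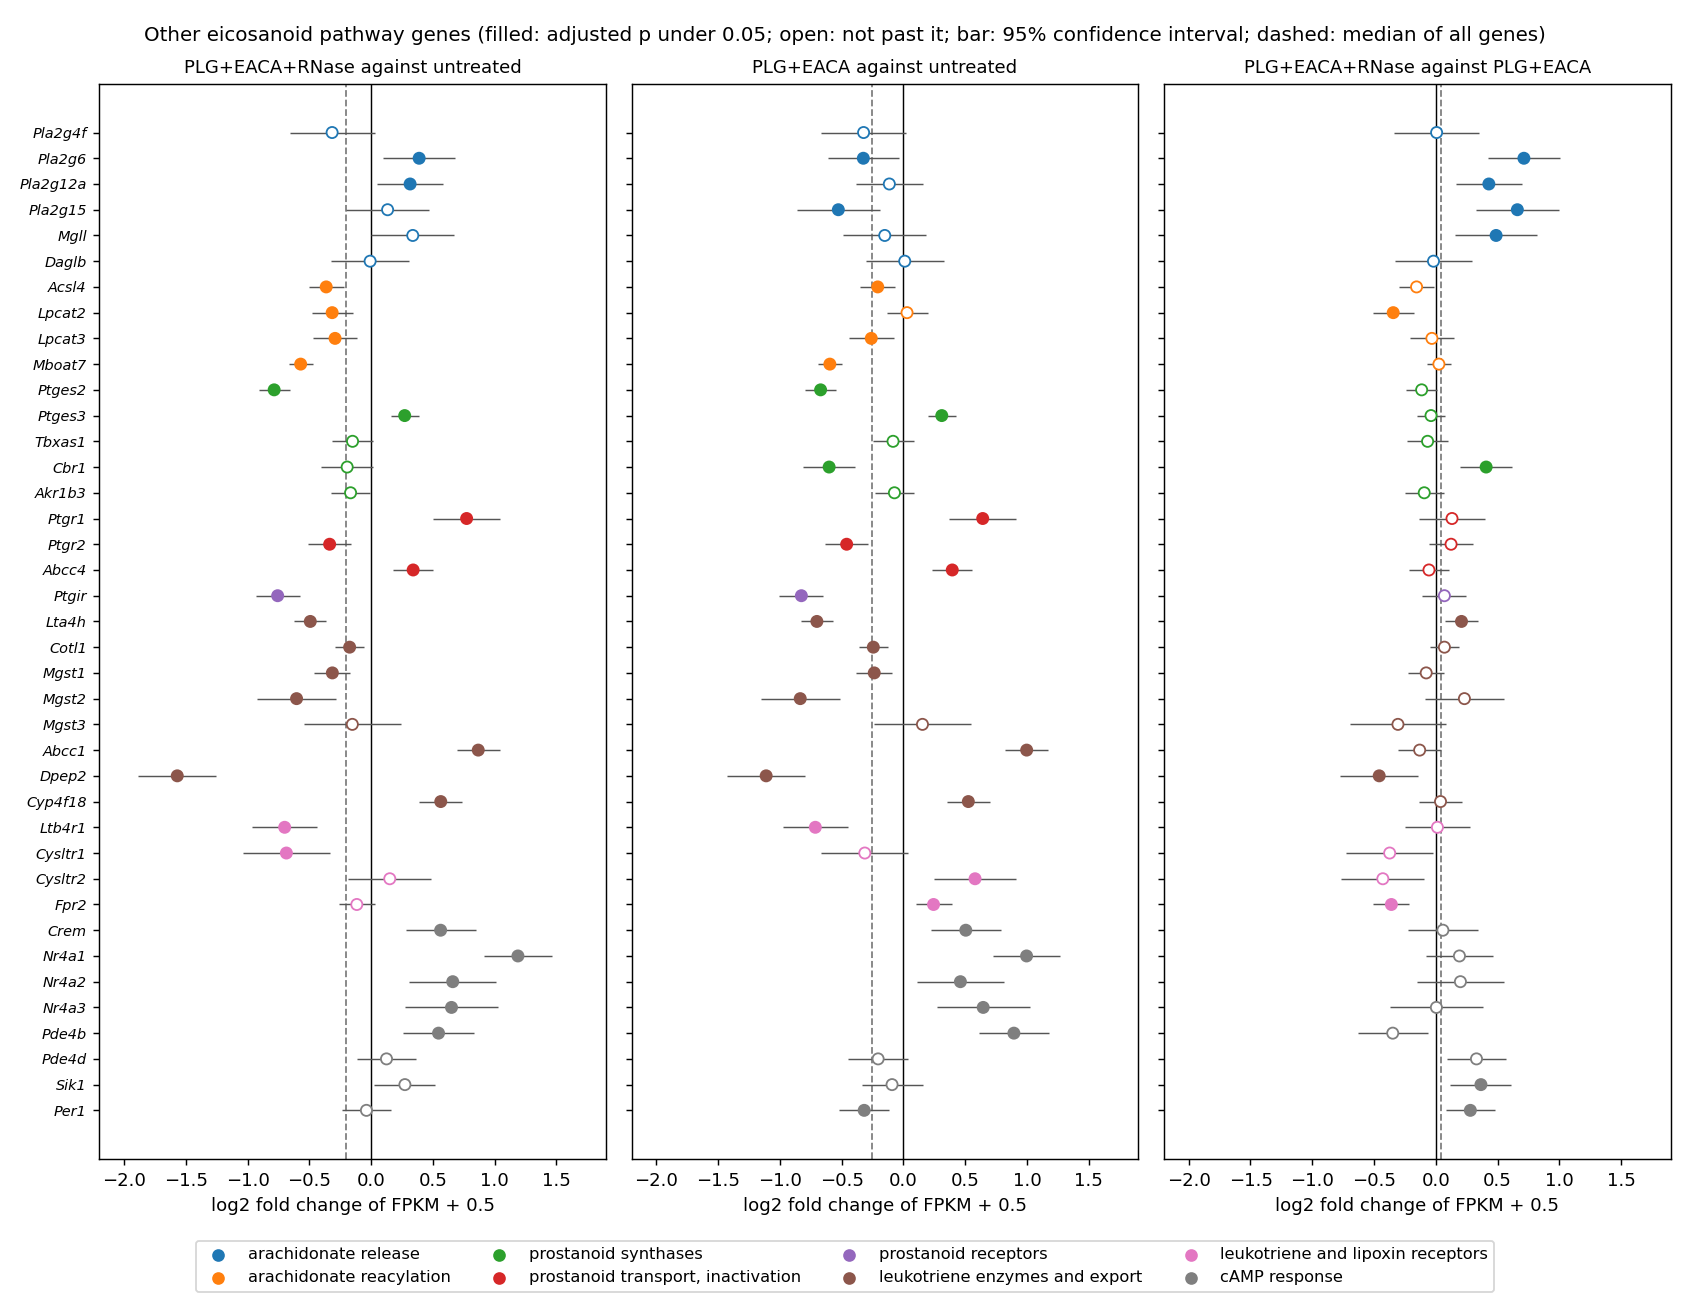
Log2 fold change of FPKM + 0.5 with its 95% confidence interval for the other tested pathway genes, coloured by role, in each comparison. Filled points passed an adjusted p of 0.05, open points did not, and the dashed line is the median of all tested genes. Dpep2 lies lowest against untreated cells, at -1.57 in PLG+EACA+RNase and -1.11 in PLG+EACA, and Abcc1 lies at 0.87 in PLG+EACA+RNase and 1.00 in PLG+EACA.

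The genes with the profile most like each of the 3 strongest members were found by the root mean square difference of centred log2 values over the 12 libraries, among 9647 candidates. For Ptgs2 they were Ereg (0.20), Cxcl1 (0.20) and Ccl5 (0.23), an epidermal growth factor family ligand and 2 chemokines. Ereg had 11.7 FPKM in PLG+EACA+RNase, 19.1 FPKM in PLG+EACA and 1.5 FPKM in untreated cells. For genes chosen by profile over these libraries, a like order of groups follows from the choice and is no separate result. For Ptges they were Csrnp1 (0.17), Ankrd33b (0.17) and Mt1 (0.18). For Ptgs1 they were Rgl2 (0.06), Arrb1 (0.07) and Arhgap45 (0.07), with Arrb1, which encodes beta-arrestin 1, at 21.5 FPKM in PLG+EACA+RNase, 20.6 FPKM in PLG+EACA and 41.8 FPKM in untreated cells. Ptgs1 is also known as a platelet enzyme, and platelet markers summed to 168 to 247 FPKM in PLG+EACA+RNase, 159 to 217 FPKM in PLG+EACA and 271 to 428 FPKM in untreated libraries, with 2 of the 4 in the table above 1 FPKM on average. Pf4 gave most of that sum, at 154 FPKM in PLG+EACA+RNase, 141 FPKM in PLG+EACA and 329 FPKM in untreated cells, whereas Ppbp had 49.9, 40.3 and 34.2 FPKM in the same groups. No platelet marker was at 0 in all libraries. Their part in the Ptgs1 values was not tested.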

How the data were processed

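Total RNA of 12 libraries, 4 in each of 3 groups, was sequenced from a directional library kit, per the labels' protocols. The tools listed in the submitters' processing notes are STAR 2.7.11a, cutadapt 4.5, DESeq2 1.40.2, FastQC 0.12.1 and featureCounts 2.0.6, with GRCm38.p6 as the build. Whether counting used strand is not given in the sources used here. The deposited values are FPKM, calculated by the authors for each gene and library. Because FPKM are not counts, they were tested with limma 3.58.1 (R 4.3.3) on log2(FPKM + 0.5), so that changes of low genes are understated. Genes with at least 1 FPKM in at least 4 libraries were kept (11165 of 32246). A single fit over the 12 libraries gave 3 contrasts with trended empirical Bayes variances and Benjamini-Hochberg adjustment over all kept genes at 0.05. The fit was tested on simulated data.

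The low FPKM values are whole multiples of the value of 1 read: 100% came out within 0.1 of a whole read in every library, giving 12940887 to 22677038 counted reads per library. A count model was therefore run as an alternative, limma voom on the recovered reads, which called 1666 genes higher and 6037 lower in PLG+EACA, 1769 higher and 5487 lower in PLG+EACA+RNase, each against untreated cells, and 1415 higher and 1012 lower in PLG+EACA+RNase against PLG+EACA. Other alternatives were pseudocounts of 0.1 and 1, no filter, median-of-ratios scaling, a replicate block, a fit of the 2 groups compared, each library left out and, chosen after seeing the data, replicate 4 of every group left out. The members and gene lists were chosen with earlier results of these data known. Of the other pathway genes, the up to 3 with the smallest p in each role and comparison, among those called, were eligible to be named. Promoter windows are from RefSeq (GRCm38.p6).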

Additional observations from a re-analysis of the deposited data

Results flagged for a closer look

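Within groups of 4 libraries, 7 of 111 gene and group combinations held a library whose gap to its nearest neighbour took a share of the group's range above Dixon's critical value, which chance gives in about 5% of groups. For Hpgds these were PLG+EACA+RNase library 4, at 0.895 FPKM against 1.49 to 1.58 FPKM in the others of its group, and untreated library 1, at 1.17 FPKM against 0.897 to 0.917 FPKM. Cysltr1 stood apart in PLG+EACA+RNase library 4, at 0.903 FPKM against 0.541 to 0.565 FPKM, and in PLG+EACA library 4, at 1.55 FPKM against 0.768 to 0.892 FPKM. Fpr2 was low in PLG+EACA library 2, at 98.4 FPKM against 111 to 113 FPKM. Lpcat2 was high in PLG+EACA library 4, at 31.6 FPKM against 24.7 to 25.1 FPKM. Pla2g12a was high in PLG+EACA library 3, at 3.21 FPKM against 1.98 to 2.03 FPKM.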

How the results depend on the processing

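Of 600 member values under alternatives, 569 kept direction and call, 15 lost the call, 9 gained one and 7 changed sign without a call, and 20 of 30 member results kept both throughout. Median-of-ratios scaling gave 2789 genes higher and 3367 lower in PLG+EACA+RNase, and 3103 and 2818 in PLG+EACA, each against untreated cells. Without it these were 1783 and 5408, and 1661 and 5963. With it, 5 members were higher in PLG+EACA+RNase and 9 other pathway genes were lower in each. The 5 include Hpgds, which passed the filter through PLG+EACA+RNase. For PLG+EACA+RNase against PLG+EACA (1349 genes higher, 975 lower) that scaling gave 867 and 1927. Members were then 1 higher and 2 lower, and other pathway genes 4 higher and 7 lower. Without the filter, 3306 genes were higher in PLG+EACA+RNase than in untreated cells, and against PLG+EACA 636 genes were lower, with 1 member and 5 other pathway genes higher. A fit of those 2 groups alone called 425 genes higher and 310 lower, with 1 member higher and 1 other pathway gene in each direction, and a pseudocount of 0.1 left 1 member higher. The cause was not tested.

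Leaving out each library gave, for PLG+EACA+RNase against PLG+EACA, 569 to 1922 genes higher, 423 to 1306 lower, 1 to 2 members higher, and 2 to 8 other pathway genes higher and 2 to 6 lower. Genes higher were 574 without PLG+EACA+RNase replicate 2, 569 without PLG+EACA+RNase replicate 3 and 766 without PLG+EACA replicate 4, and genes lower 456 and 423 without those PLG+EACA+RNase replicates. Ltc4s alone stayed called higher among the members, Hpgds being lost, without any 1 library other than PLG+EACA+RNase replicate 4 and PLG+EACA replicate 3. Other pathway genes higher were 3, 2 and 2 without PLG+EACA+RNase replicates 1, 2 and 3, 3, 4 and 4 without PLG+EACA replicates 1, 2 and 4, and 5 without untreated replicate 2 or 4, and 6 were lower without PLG+EACA+RNase replicate 4. The changes of sign were Hpgds in PLG+EACA against untreated cells (0.082) and Ptger4 in PLG+EACA+RNase against PLG+EACA (-0.033) under median-of-ratios scaling. Leaving out each library, Alox5ap ranged from -0.008 to 0.128 in PLG+EACA+RNase against untreated cells, below 0 without PLG+EACA+RNase replicate 1. Against PLG+EACA it ranged from -0.112 to 0.045, above 0 without PLG+EACA+RNase replicate 2, PLG+EACA replicate 2 or PLG+EACA replicate 4, and was 0.067 without replicate 4 of every group.

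Over all tested genes, deviations of same-numbered libraries correlated at -0.18 to 0.33. Such correlations cannot decide whether the numbers pair the libraries. With a replicate block, 1586 genes were higher and 1092 lower in PLG+EACA+RNase than in PLG+EACA, with 2 members higher and 1 lower. Hpgds, among those 2, was then also called higher in PLG+EACA+RNase than in untreated cells (adjusted p = 0.0367). It passed the filter through PLG+EACA+RNase, so both calls are given as a description. Depth limits Hpgds and Ltc4s most, which rest on 74 to 195 and 49 to 91 reads.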
